A study of Homo sapiens with 8 samples.

Results

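The nuclear genes of respiratory complex I were followed on 8 Agilent expression arrays, which carry probes of 60 bases and are read in 2 colours. The genes were taken by name: all genes of the array design called NDUFA, NDUFB, NDUFC, NDUFS, NDUFV or NDUFAF followed by a number only, plus NDUFAB1. The rule gave 45 of the 43317 genes of the array, 38 of them subunits and 7 assembly factors (NDUFAF1 to NDUFAF7). On each array, Cy3-labelled RNA of mock cells, for which the labels give no transfection, was hybridised together with Cy5-labelled RNA of treated cells. PC3, an androgen-independent prostate cancer line, was given bisamide for 24 h or 48 h or was transfected with miR-125b-1-3p. C4-2, a prostate cancer line derived from LNCaP, received miR-199-3p. The strands miR-532-5p and miR-532-3p were each given to 786-O, a line of renal cell carcinoma. The strands miR-140-5p and miR-140-3p were each given to T24, a line of bladder cancer. Bisamide, a small molecule, is known as a ligand of pirin, a nuclear protein that binds iron. Each of the 8 treatments had 1 array, so no difference had a replicate check and no test was made. Whether mock cells received the transfection reagent is not stated in the sources used here, and if they did not, an effect of transfection itself and an effect of the miRNA cannot be told apart. The naming of the deposited files gave the same mock to both miR-532 arrays and to both miR-140 arrays, so these pairs share their control, whereas the 3 PC3 arrays had a mock each.

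Complex I is the entry point of the respiratory chain in the inner mitochondrial membrane. It takes electrons from NADH, passes them over a flavin and a row of iron-sulfur clusters to ubiquinone, and pumps protons with the energy set free. Its catalytic core is made of 7 nuclear subunits, which carry the flavin, the clusters and the ubiquinone site, and of the ND subunits, which are encoded in mitochondrial DNA and form the pump. The many further nuclear subunits, called supernumerary, surround the core and stabilise it. Assembly factors help to build the enzyme in modules and are absent from the finished complex: the N module oxidises NADH, the Q module reduces ubiquinone, and the proximal and distal parts of the membrane arm pump protons.

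The transfected miRNAs are shown because the only complex I gene past a log2 ratio of 1.0 on any array had a match to one of them in its probe. The mature sequences are those of RefSeq (GRCh38.p14), 5′ to 3′, with the seed (bases 2 to 8) in capitals. No 2 of the 6 arrays shared a seed. The label miR-199-3p does not say which gene copy was meant, and the mature strands of miR-199a-3p and miR-199b-3p are identical.
miR-199a-3p and miR-199b-3p: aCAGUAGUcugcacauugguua
miR-125b-1-3p: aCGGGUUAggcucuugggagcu
miR-532-5p: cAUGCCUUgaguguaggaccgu
miR-532-3p: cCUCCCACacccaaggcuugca
miR-140-5p: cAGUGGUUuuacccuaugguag
miR-140-3p: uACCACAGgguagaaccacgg

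The 45 complex I genes were measured on every array. All were well above background in both channels on all 8 arrays, so the filter on dim probes removed none of them. Between 15442 and 19241 of all genes were measured on an array in this sense, and no spot was saturated. Raw Cy3 signals of the members ran from 68.4 to 17304 over the arrays. Cy5 was the brighter channel before correction on 7 of the 8 arrays: the median raw ratio of Cy5 over Cy3 over the members was 0.912 with miR-532-5p and 1.32 to 1.92 on the other 7 arrays, against 0.874 and 1.15 to 1.55 for all measured genes. All ratios below are log2 values of treated over mock after background correction and a loess fit of the dye ratio on intensity, with 1 representing probe a gene. NDUFS5 and NDUFS6 were the members with 10 spots of 1 probe, whose SD within an array was 0.017 to 0.057. The SD of the Cy3 level between the 3 PC3 mock arrays had a median of 0.10 over the members, with a highest value of 0.34 (NDUFAF3). This is the only measure of spread between cultures. The 3 mocks belong to arrays of different treatments and times, so the SD may hold more than that spread.

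The mock channels were set against marker genes of the lines. KLK3, the gene of prostate-specific antigen, was bright in mock C4-2 cells (raw Cy3 13592) and not well above background in the other mocks. The renal factors PAX8 and PAX2 did not set 786-O apart: PAX8 had 235 and 239 in 786-O and 390 and 423 in T24, and PAX2 had 124 and 112 in 786-O and 551 and 619 in T24. Of the urothelial markers, GATA3, UPK1B, UPK2 and UPK3A were not well above background in the mocks labelled T24, and UPK1A was, with raw signals of 30.7 and 37.9. The markers therefore do not identify the line of the arrays labelled T24, and values of 786-O and T24 below go by the labels.

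In bulk RNA, fewer cells with a transcript and less of it per cell cannot be told apart. Few complex I genes differed by much between treated and mock cells on any array. Of the 360 values (45 genes on 8 arrays), 352 lay between −0.5 and 0.5. The 8 values outside came from 7 genes and 3 arrays, which is 2.22% of the members' values against 3.60% of the values of all measured genes. The lowest value was −1.14 and the highest 0.50, and 38 of 45 members stayed within 0.5 on all 8 arrays. The range of a member over the 8 arrays had a median of 0.48, beside 0.45 for all genes measured on the 8 arrays. NDUFV1, the subunit that binds NADH and the flavin, had the smallest range, from −0.01 to 0.11.

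**Figure D1:**
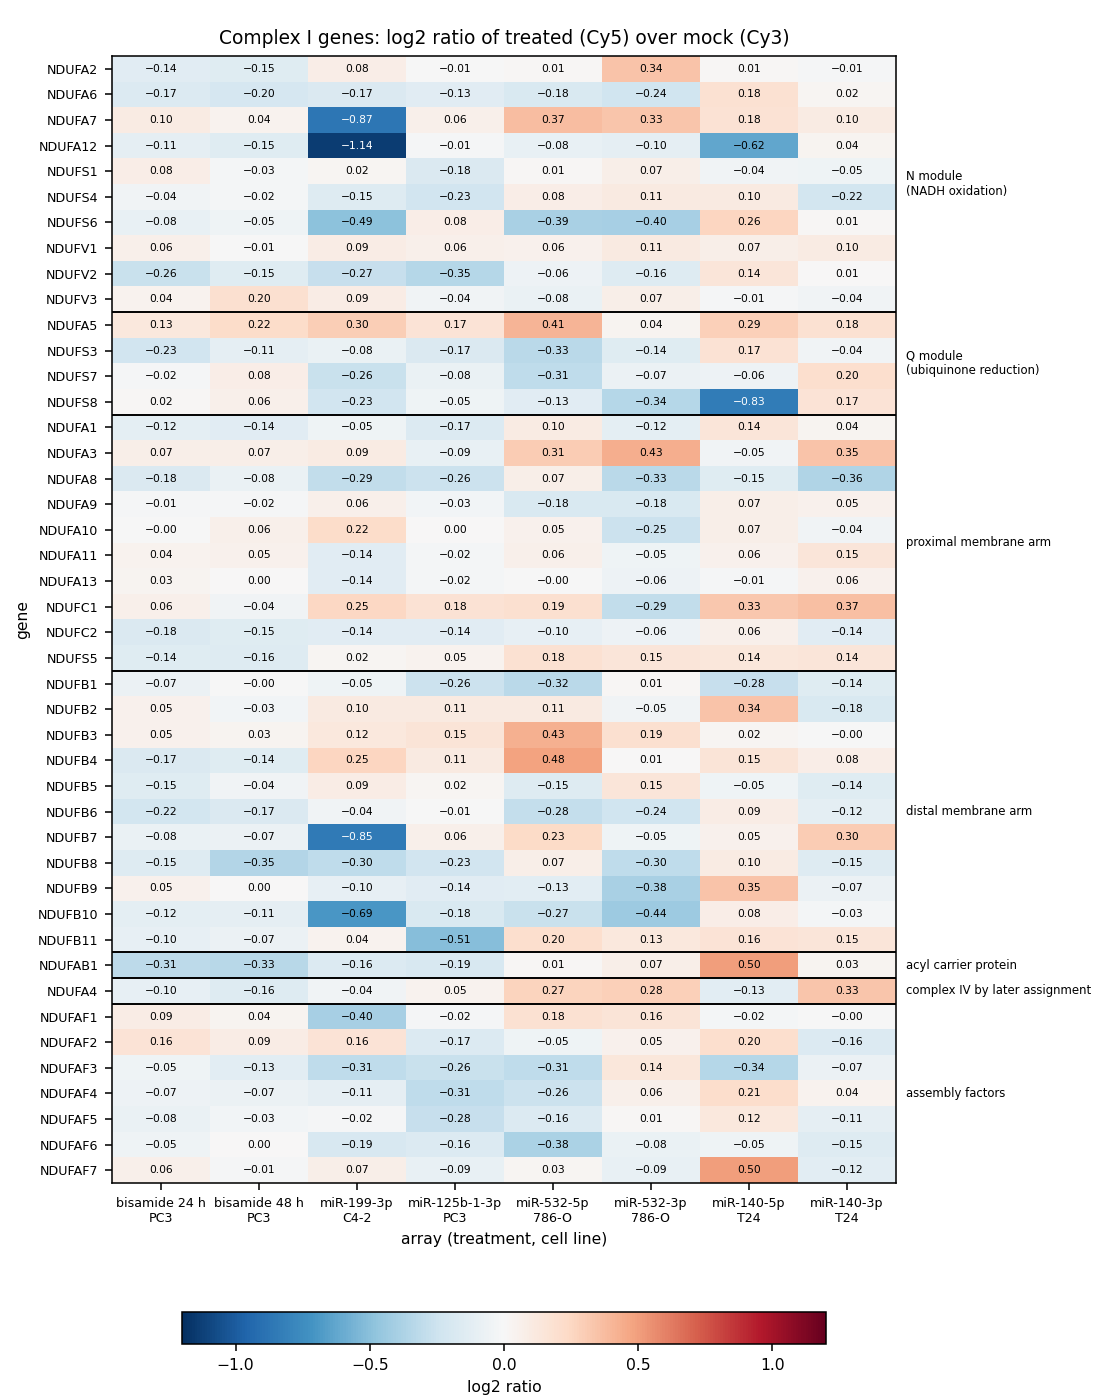
Log2 ratio of treated (Cy5) over mock (Cy3) for 44 of the 45 complex I genes (rows, grouped by the part of the enzyme) on the 8 arrays (columns, 1 array a treatment), on a colour scale from blue (lower in treated cells) to red (higher). The darkest fields are NDUFA12 (−1.14), NDUFA7 (−0.87), NDUFB7 (−0.85) and NDUFB10 (−0.69) with miR-199-3p and NDUFS8 (−0.83) with miR-140-5p.

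The largest differences were seen with miR-199-3p in C4-2. Of the 45 members, 4 were below −0.5, beside 2.74% of all measured genes, and 0 were above 0.5, beside 1.75%. All 4 are supernumerary subunits: NDUFA12 and NDUFA7 of the N module, and NDUFB7 and NDUFB10 of the distal membrane arm. The median over the 38 subunits was −0.05 and that over the 7 assembly factors −0.11, beside 0.01 for all genes, and 23 of 38 subunits were below 0, beside 47.2% of all genes. The 4 genes were the low end of a graded list: NDUFS6 followed at −0.49, NDUFAF1 at −0.40 and NDUFAF3 at −0.31. The lower quartile of the 45 members was −0.23, beside −0.09 for all genes, and the upper quartile 0.08, beside 0.12. The number 4 therefore depends on where the limit is set.

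NDUFA12, a small subunit of the N module that takes the place of the assembly factor NDUFAF2 late in assembly, was lowest at −1.14, which is a level in treated cells of 0.454 of that in mock cells. Its raw signal was 602 in Cy3 and 398 in Cy5, on an array where the median member was 1.49-fold brighter in Cy5. In PC3 its ratio was −0.11 and −0.15 after 24 h and 48 h of bisamide and −0.01 after miR-125b-1-3p. It was −0.08 and −0.10 for the 5p and 3p strands of miR-532, and −0.62 and 0.04 for those of miR-140. NDUFA12 was thus low on 2 arrays and near 0 on the other 6. The gene has a second probe, which gave −0.91 with miR-199-3p and −0.47 with miR-140-5p, and −0.11 to 0.22 elsewhere. The representing probe lies on chromosome 12, 95387952 to 95388011, on the reverse strand, and the second at 95365110 to 95365169 (GRCh37).

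The representing probe of NDUFA12 holds the reverse complement of the miR-199-3p seed, ACTACTG, followed by an A. The match is shown in capitals in 30 bases of the sense strand of the probe, where it takes bases 2 to 8 of the 60.
NDUFA12: tACTACTGaaatgaatggcaaaaacacatt
The search was made after the ratios had been seen, with the 7-base word of each miRNA on the sense strand of all probes of the members. Of the 15686 measured genes, 63 (0.402%) had ACTACTG in their representing probe. Their median ratio on the miR-199-3p array was −0.13, and 12 of them (19.0%) were below −0.5. A 60-base probe covers a short stretch of a transcript, whether this stretch of NDUFA12 is coding was not determined, and sites elsewhere in the transcripts were not searched, so a match here is a description of the probe and does not show a target site. The probes of NDUFA7, NDUFB7 and NDUFB10 had no such word.

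NDUFA7, a further N module subunit, had a ratio of −0.87 with miR-199-3p, from raw signals of 2454 in Cy3 and 2263 in Cy5. On the other 7 arrays it lay between 0.04 and 0.37, with the highest values in 786-O (0.37 for the 5p and 0.33 for the 3p strand of miR-532), so it was below 0 on the miR-199-3p array only. Its probe is on chromosome 19, 8376275 to 8376334, reverse strand. NDUFB7, a subunit of the distal membrane arm, had −0.85 with miR-199-3p (raw 301 in Cy3, 230 in Cy5) and −0.08 to 0.30 elsewhere. Its probe spans 5015 bases of chromosome 19, 14677745 to 14682759, and therefore crosses a splice junction. NDUFB10, also of the distal arm, had −0.69 (raw 2004 in Cy3, 2068 in Cy5; chromosome 16, 2011549 to 2011608), and the next lowest value of this gene was −0.44, with miR-532-3p. Each of these 3 genes has a single probe.

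NDUFS6, a zinc-binding subunit of the N module, lay just inside the limit at −0.49 with miR-199-3p, with an SD of 0.06 over its 10 spots. It was also low in 786-O, at −0.39 and −0.40 for the 5p and 3p strands of miR-532. It was −0.08 and −0.05 after 24 h and 48 h of bisamide, 0.08 with miR-125b-1-3p, and 0.26 and 0.01 for the strands of miR-140. Among the assembly factors, NDUFAF1, a factor of the early membrane arm intermediates, was lowest with miR-199-3p at −0.40, and NDUFAF3, which acts on the Q module, followed at −0.31. The highest members on this array were NDUFA5, a Q module subunit, at 0.30, and NDUFB4, of the distal arm, at 0.25.

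**Figure D2:**
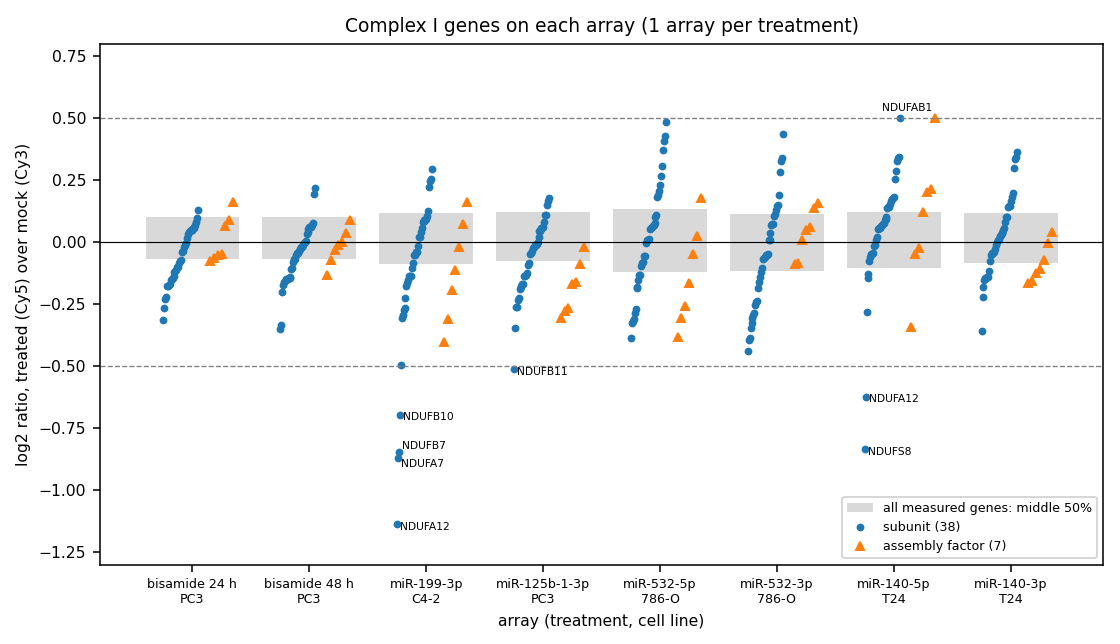
Log2 ratio of treated over mock for each subunit (circles, 38) and assembly factor (triangles, 7) on each array, sorted within an array, with the middle 50% of all measured genes as a grey band and dashed lines at −0.5 and 0.5. Named genes are those past a dashed line: 4 below −0.5 in C4-2, NDUFB11 in PC3, and in T24 NDUFA12 and NDUFS8 below −0.5 and NDUFAB1 above 0.5.

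**Figure D3:**
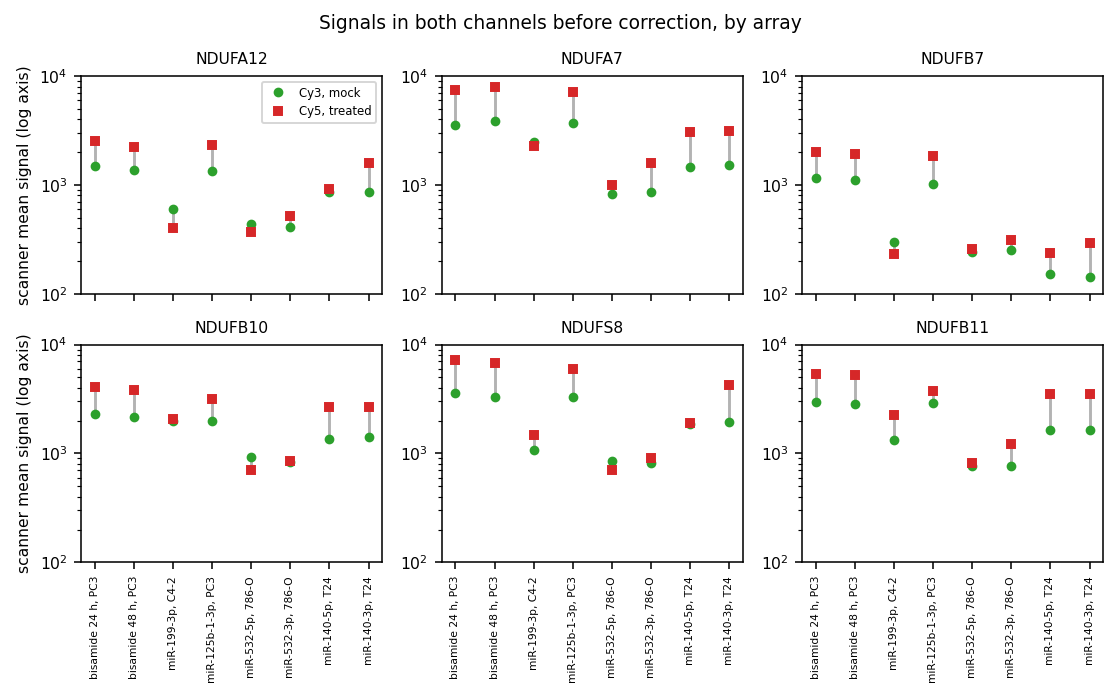
Scanner mean signals of 6 complex I genes in Cy3 (mock, circles) and Cy5 (treated, squares) on the 8 arrays, before any correction, on log axes. Cy5 is usually the brighter channel. With miR-199-3p it is the dimmer one for NDUFA12 (398 against 602), NDUFA7 (2263 against 2454) and NDUFB7 (230 against 301). For NDUFS8 with miR-140-5p both channels nearly meet (1861 in Cy3, 1888 in Cy5).

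With miR-140-5p in T24, 2 members were below −0.5 (2.89% of all genes) and 1 was above 0.5 (1.74%). NDUFS8, a core subunit of the Q module that holds a pair of iron-sulfur clusters, was lowest at −0.83, 1.78-fold lower than in mock cells, from raw signals of 1861 in Cy3 and 1888 in Cy5. It was the only core subunit outside 0.5 on any array. On the miR-140-3p array, which shares the mock, NDUFS8 had 0.17 (raw 1936 in Cy3, 4276 in Cy5), and on the other 6 arrays it lay between −0.34 and 0.06. NDUFA12 had −0.62 here and 0.04 for the 3p strand. No probe of NDUFS8 or NDUFA12 held the word for the miR-140-5p seed, AACCACT. The NDUFS8 probe lies on chromosome 11, 67803956 to 67804015, and is the only one of the gene.

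NDUFAB1, the mitochondrial acyl carrier protein, which is both a subunit and a cofactor of fatty acid and iron-sulfur cluster synthesis, was highest with miR-140-5p at 0.50 (raw 1367 in Cy3, 3621 in Cy5). It passed the limit by under 0.01, and the assembly factor NDUFAF7, a methyltransferase, fell short of it by as little (also 0.50 when rounded). NDUFAB1 had 0.03 and NDUFAF7 −0.12 with miR-140-3p. The medians with miR-140-5p were 0.07 for subunits and 0.12 for assembly factors, beside 0.01 for all genes. Of the subunits, 12 of 38 were below 0, the lowest number of the 8 arrays, beside 47.5% of all genes. In the distal arm 2 of 11 were below 0, and NDUFB9 at 0.35 and NDUFB2 at 0.34 were highest.

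With miR-140-3p in T24, no member passed 0.5 in either direction (1.09% of all genes were below −0.5 and 0.998% above 0.5). The lowest were NDUFA8 (−0.36), a subunit at the intermembrane space side of the proximal arm, and NDUFS4 (−0.22), an N module subunit. The highest were NDUFC1 (0.37) and NDUFA3 (0.35), both of the proximal arm. The assembly factor median was −0.11 and the subunit median 0.02, beside 0.02 for all genes, with 17 of 38 subunits below 0, beside 45.4%.

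With miR-125b-1-3p in PC3, 1 member was below −0.5 (0.883% of all genes) and none was above 0.5 (1.77%). This was NDUFB11, a subunit of the distal arm encoded on the X chromosome (47002046 to 47002105), with −0.51 from raw signals of 2933 in Cy3 and 3707 in Cy5. Its values on the other 7 arrays lay between −0.10 and 0.20, including −0.10 and −0.07 with bisamide in the same line. NDUFV2, a core subunit with an iron-sulfur cluster next to the flavin site, followed at −0.35, with −0.33 from its second probe. All 7 assembly factors were below 0 on this array, from −0.31 (NDUFAF4) to −0.02 (NDUFAF1), with a median of −0.17, beside 45.5% of all genes below 0. The subunit median was −0.04, with 25 of 38 below 0. The highest members were NDUFC1 (0.18) and NDUFA5 (0.17).

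With miR-532-5p in 786-O, no member passed 0.5, although 3.67% of all genes were below −0.5 and 3.6% above 0.5. The highest members were NDUFB4 (0.48) and NDUFB3 (0.43), both of the distal arm, followed by NDUFA5 (0.41). The lowest were NDUFS6 (−0.39) and the assembly factor NDUFAF6 (−0.38). The subunit median was 0.01 and that of the assembly factors −0.16, beside 0.00 for all genes, and 17 of 38 subunits were below 0, beside 49.8%.

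With miR-532-3p in the same line, again none passed 0.5 (3.84% of all genes were below −0.5 and 1.71% above 0.5). NDUFB10 (−0.44) and NDUFS6 (−0.40) were lowest, and NDUFA3 (0.43) and NDUFA2 (0.34) highest. Of the subunits, 22 of 38 were below 0, beside 50% of all genes. NDUFS8 had −0.34 here, and its probe ends in the reverse complement of the miR-532-3p seed, GTGGGAG, in capitals in the last 30 bases of the probe.
NDUFS8: aagttgctcaacaacggggacaaGTGGGAG
This word was in the representing probe of 60 measured genes (0.389%), whose median ratio with miR-532-3p was −0.14. The representing probe of NDUFB9 held the word for miR-140-3p, CTGTGGT, and had a ratio of −0.07 on that array. No member's probe held the words for miR-125b-1-3p, miR-532-5p or miR-140-5p.

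The strands of each hairpin were read against the same mock, so only the values are given side by side. Between miR-140-5p and miR-140-3p, 4 members lay more than 0.5 apart: NDUFS8 (−0.83 and 0.17), NDUFA12 (−0.62 and 0.04), NDUFAF7 (0.50 and −0.12) and NDUFB2 (0.34 and −0.18). Of all genes measured on both arrays, 5.93% were this far apart. Between miR-532-5p and miR-532-3p, 0 members were over 0.5 apart, beside 8.88% of all genes, and the largest differences were those of NDUFC1 (0.19 and −0.29) and NDUFB4 (0.48 and 0.01).

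Bisamide in PC3 gave the narrowest spread of complex I ratios. The same held for all measured genes, whose quartiles were closest on these arrays (−0.07 and 0.10 at both times). No member was past 0.5 at 24 h (0.4% of all genes below −0.5, 1.05% above 0.5) or at 48 h (0.878% and 0.915%). The values ran from −0.31 (NDUFAB1) to 0.16 (NDUFAF2) at 24 h and from −0.35 (NDUFB8) to 0.22 (NDUFA5) at 48 h. A second probe of NDUFAF2 gave −0.04 at 24 h. The subunit medians were −0.07 at 24 h and −0.04 at 48 h, with 25 and 26 of 38 below 0, beside 0.01 and 45.7% and 45.6% of all genes. The assembly factor medians were −0.05 and −0.01. NDUFAB1 was low at both times (−0.31 and −0.33), and NDUFV2 had −0.26 and −0.15. NDUFB8, of the distal arm, had −0.15 and −0.35, but its second probe gave −0.06 and −0.09. Ratios at both times were close: the median absolute difference between 24 h and 48 h was 0.05 over the members and 0.07 over all genes.

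The core subunits were compared with the rest across the arrays. NDUFS1, the largest core subunit, lay between −0.18 and 0.08 on the 8 arrays, NDUFS3 between −0.33 and 0.17, and NDUFS7 between −0.31 and 0.20. These subunits, with NDUFS8, line the path of the electrons to ubiquinone or hold the ubiquinone site. The median over the 7 core subunits lay between −0.14 (miR-532-3p) and 0.01 (miR-140-3p), and that over the 31 supernumerary subunits between −0.08 (bisamide 24 h) and 0.08 (miR-140-5p). NDUFA5 was the only member above 0 on all 8 arrays (0.04 to 0.41). Without dye swaps, a ratio of 1 sign on every array cannot be told apart from a dye effect of its probe.

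As corrected here, each assembly factor was within 0.5 on every array, but several of their signals were dim. With miR-532-5p, NDUFAF6 had raw signals of 100 in Cy3 and 58.9 in Cy5. The assembly factor median on that array was −0.16, and −0.27 with an offset of 0. Counted over all 45 members, 1 was then below −0.5 there, and 2 in the scanner's ratio. In C4-2 the assembly factor median was −0.11, and −0.24 in the scanner's ratio. NDUFAF3 was below 0 on 7 of 8 arrays (−0.34 to −0.05, and 0.14 with miR-532-3p), and NDUFAF6 lay between −0.38 and 0.00. NDUFAF5, a hydroxylase of NDUFS7, ranged from −0.28 to 0.12 and NDUFAF2 from −0.17 to 0.20. NDUFAF8, the partner of NDUFAF5, is on the array only under its older name C17orf89, outside the naming rule. Its ratio was −0.07 and 0.06 after 24 h and 48 h of bisamide, −0.13 on the arrays of miR-199-3p and of miR-125b-1-3p, −0.27 and −0.42 for the 5p and 3p strands of miR-532, and −0.16 and 0.13 for those of miR-140. NDUFA4, a gene named for complex I whose product was later assigned to complex IV, lay between −0.16 and 0.33.

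Of the 45 genes, 11 have more than 1 probe. For NDUFA12 the probes gave the same sign wherever one of them was past 0.4. For NDUFC2, of the proximal arm, signs differed: the representing probe had 0.06 and the other −0.32 with miR-140-5p, and −0.10 and 0.30 with miR-532-5p. Probes of other genes differed in sign too. Examples are NDUFV3 with miR-532-5p (−0.08, and 0.20 from its second probe) and NDUFA10 with miR-532-3p (−0.25, and 0.07 from another probe). The second probe of NDUFS7 was not well above background on any array.

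Other genes of the respiratory chain were read in the same way. Complex II, which passes electrons from succinate to ubiquinone, had negative medians on all 8 arrays over its 4 genes, from −0.21 (bisamide 24 h) to −0.01 (miR-140-5p), with SDHA at −0.67 with miR-532-3p as the only value past 0.5; with median centring its medians were above 0 on 7 arrays (0.20 to 0.75). Complex III (9 genes) had medians of −0.11 to 0.18, complex IV (10 genes) of −0.03 to 0.11 and ATP synthase (17 genes) of −0.11 to 0.09. The list of 10 further assembly factors of complex I, such as ACAD9, ECSIT and TMEM126B, had medians of −0.12 to 0.01 and no value past 0.5. With miR-199-3p, the array of the 4 low complex I subunits, 0 genes of complexes II, III and IV and 2 of 17 of ATP synthase were below −0.5, beside 2.74% of all genes, the lowest being ATP5G1 at −0.86. TFAM, which packages and transcribes mitochondrial DNA, had −0.74 on that array and −0.31 to 0.14 on the others. In the list of 12 regulators of mitochondrial biogenesis that holds TFAM, the further values past 0.5 were those of GABPB1, a subunit of GABP (0.64 and 0.72 for the 5p and 3p strands of miR-532 and 0.64 with miR-140-5p), and of ESRRA, a nuclear receptor (−0.60 for the 3p strand of miR-532). The 77 genes of mitochondrial ribosomal proteins had medians of −0.14 to 0.05, with 10 of them below −0.5 with miR-532-5p, beside 3.67% of all genes on that array.

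The ND subunits of complex I that are encoded in mitochondrial DNA had a higher median ratio than the nuclear subunits on all 8 arrays. The gap was smallest at 48 h of bisamide (−0.03 beside −0.04). The 6 genes found by name had a median of 0.09 and −0.03 with bisamide at 24 h and 48 h, of 0.25 in C4-2 and of 0.38 in PC3 given miR-125b-1-3p. It was 0.39 and 0.24 for the 5p and 3p strands of miR-532, and 0.30 and 0.54 for those of miR-140. With miR-140-3p, 4 of the 6 were above 0.5, beside 0.998% of all genes, led by ND3 at 0.82 and ND2 at 0.68. ND6, which lies on the other strand of mitochondrial DNA from the rest, was below 0 on 5 arrays, with a range of −0.30 to 0.32. With median centring the ND median was above that of all genes on all 8 arrays, by 0.38 to 1.05 on the 6 miRNA arrays and by 0.46 and 0.37 with bisamide at 24 h and 48 h. In the scanner's own ratio it was above by 0.24 to 0.53 on the miRNA arrays and by 0.14 at 24 h of bisamide, and at −0.07 relative to all genes at 48 h. Each gene's median over other arrays was also subtracted. Those arrays left out the other strand of the same hairpin, the other time of bisamide and, for miR-125b-1-3p, both bisamide arrays. The ND median was then −0.28 and −0.43 with bisamide at 24 h and 48 h. It was then −0.09 in C4-2 and 0.05 in PC3 given miR-125b-1-3p. In 786-O it was 0.15 and −0.03 for the 5p and 3p strands of miR-532, and in T24 −0.02 and 0.31 for those of miR-140. In this setting the ND median was below that of the nuclear subunits with bisamide at both times, miR-199-3p and miR-140-5p, and above it on the other arrays. Without dye swaps, a sign shared by many arrays cannot be told apart from a dye effect of the probes, and this was not tested.

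**Figure D4:**
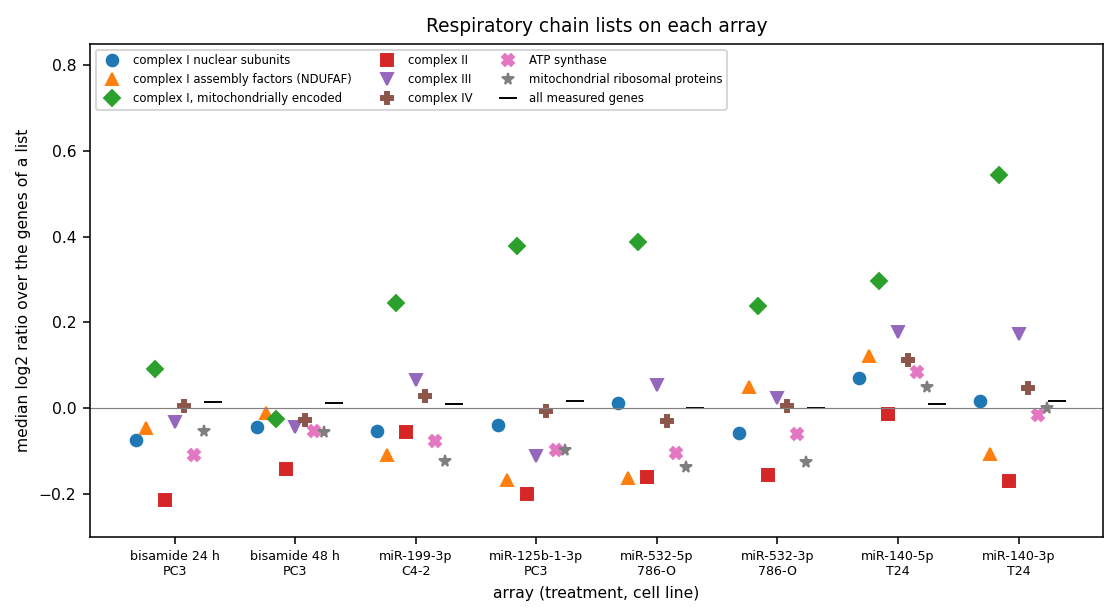
Median log2 ratio over the genes of each list on the 8 arrays (1 symbol a list, black dashes for all measured genes). The nuclear complex I subunits lie between −0.07 and 0.07 throughout, while the mitochondrially encoded ND genes reach 0.54 with miR-140-3p.

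The signs of the list medians rest on the correction for intensity. With median centring of each array in place of loess, the subunit median lay between 0.43 and 0.90 on 7 arrays, and at −0.08 with miR-532-5p; the median of all measured genes then lay between 0.17 and 0.45 on those 7 arrays. Relative to it, the subunit median was 0.26 to 0.55 higher on those 7 arrays, so no direction is given for the list as a whole. For single genes under median centring, NDUFA12 (−0.57), NDUFB7 (−0.35) and NDUFA7 (−0.14) with miR-199-3p and NDUFS8 (−0.02) with miR-140-5p kept their sign. NDUFB10 with miR-199-3p (0.02), NDUFA12 with miR-140-5p (0.07) and NDUFB11 with miR-125b-1-3p (0.26) turned, and relative to the median of all genes on their arrays they were at −0.28, −0.28 and −0.16. Minus the median of each gene over the other arrays, which takes out a constant dye effect of a probe, NDUFA12, NDUFA7, NDUFB7 and NDUFB10 with miR-199-3p were at −1.03, −0.97, −0.90 and −0.58.

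The levels of the members in mock cells differed between the 4 lines. Each level is a log2 Cy3 value after normalization between arrays, averaged over the 3 PC3 mocks, over both arrays of 786-O and of T24, and taken from 1 array for C4-2. Levels are compared for 1 gene across lines and never between genes. The range between the highest and lowest line was above 1.0 for 15 of 45 members, beside 36.8% of all genes well above background in Cy3 on the 8 arrays, and its median was 0.83 over the members and 0.80 over all those genes. Going by the naming of the mocks described at the start, only PC3 had more than 1 mock culture. The arrays of 786-O and of T24 then repeat 1 mock each, with a median difference of 0.05 and 0.04 over the members.

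NDUFB7 had the largest range, 2.34: its level was 9.73 to 9.97 in the PC3 mocks, 9.31 in C4-2, 9.13 in 786-O and 7.55 in T24. In this scaling T24 was thus far below the other lines, 5.05-fold below PC3, and the other lines lay between 9.13 and 9.97. NDUFS4 followed, with 10.69 in T24, 10.54 in C4-2, 9.86 in PC3 and 9.02 in 786-O, beside an SD of 0.07 between the PC3 mocks. NDUFB9 was highest in PC3 (14.02) and lowest in T24 (12.61), and NDUFAF6 was highest in PC3 (8.52) and lowest in C4-2 (7.29). In the same scaling NDUFB10 was higher in C4-2 (11.95) than in the other lines (10.65 to 10.86). These lay in or next to the range of the PC3 mocks (10.71 to 10.94). NDUFA12, the gene lowest with miR-199-3p, had levels of 9.88 (786-O) to 10.27 (C4-2), 1.31-fold apart. With the Cy3 signals centred on the 75th percentile of each array instead, 786-O was also lowest for NDUFA12, and PC3, then the highest line, was 2.21-fold above it. NDUFB7 then had 3.42 in PC3, 2.15 in C4-2, 1.90 in 786-O and 0.92 in T24. T24 was again lowest, but PC3 also stood apart from C4-2 and 786-O. NDUFB10 then had 4.75 in C4-2, 3.90 in T24 and 3.60 in 786-O, beside 4.25 to 4.48 in the PC3 mocks.

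The 786-O mock was the lowest of the 4 lines for 23 of 45 members, beside 21.3% of all genes, and was the highest for 0, beside 22.8%. The members lowest there included the core subunits NDUFV1, NDUFV2, NDUFS3, NDUFS7 and NDUFS8. For NDUFS7, however, the 786-O level (9.46) was within the range of the PC3 mocks (9.31 to 9.63). The core subunit NDUFS1 was lowest in PC3 (10.41, beside 10.43 in 786-O). Some ranks rest on small gaps, such as that of NDUFA12 (9.88 in 786-O and 9.90 in T24). The difference from the mean of the 4 lines had a median of −0.26 over the members in 786-O, and of 0.16 in PC3, 0.20 in C4-2 and 0.02 in T24. Centred on the 75th percentile, 786-O was lowest for 35 members (30.7% of all genes) and highest for 0, and 35 members differed by more than 1.0 between lines (42.2% of all genes). The highest line also depended on the scaling: it was PC3 for 15 members and C4-2 for 17 as first given, and PC3 for 32 (36.9% of all genes) and C4-2 for 4 with the 75th percentile. Going by the naming of the mocks, that of 786-O was 1 culture read on 2 arrays, so the line and the culture cannot be told apart.

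**Figure D5:**
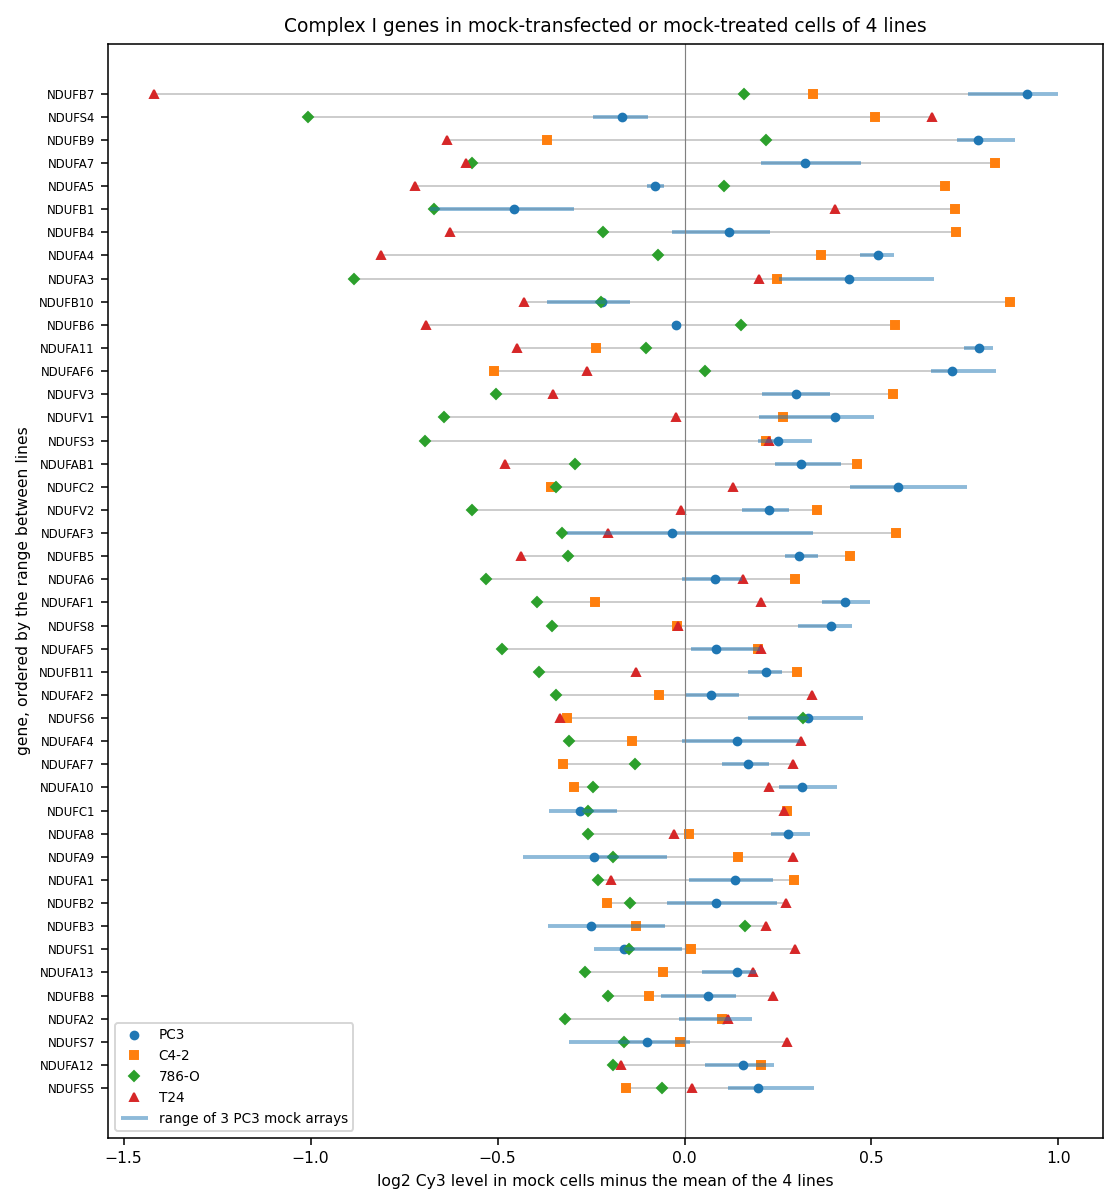
Log2 Cy3 level of 44 of the 45 complex I genes in mock cells minus the mean of the 4 lines, with the symbol giving the line and the thick bar the range of the 3 PC3 mock arrays, ordered by the range between lines. In this normalization between arrays, NDUFB7 is at the top with T24 far below the other lines. The 786-O mock (diamonds) is the lowest line for 23 of all 45 genes, the gene not drawn included, and the highest for none.

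The promoters were searched for short words of factors known at mitochondrial genes. RefSeq (GRCh38.p14) gave 250 bases before to 50 after the start for 38 of the 45 members, matched by symbol. On either strand, CATGCGC, part of the word of NRF1 (nuclear respiratory factor), was in 9 of 38 members (23.7%), beside 5.30% of all 27305 genes with a promoter and 9.33% of the 7726 that were also measured on the 8 arrays. GATGGCG, part of the word of YY1, was in 6 (15.8%), beside 5.11% of all genes and 776 of the 7726. NDUFA6, NDUFB8 and NDUFS7 had both. CCGGAAG, a word of ETS factors such as GABPA, was in 6 (15.8%), beside 12.2% and 24.3%. GGGCGG, a word of SP1, was in 24 (63.2%), beside 48.3% and 77.5%, and TATAAA in 3 (7.89%), beside 13.99% and 7.56%. No word contains another, and a match does not show that a factor binds. Of the genes low with miR-199-3p, NDUFA7 had the words of YY1 and SP1 and TATAAA, NDUFB7 those of ETS factors and SP1, NDUFB10 that of SP1, and NDUFA12 none of the 5.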

How the data were processed

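Two-colour intensities of 8 arrays on 1 slide were analysed, 1 array for each group. Per the file headers, the authors read them with Agilent Feature Extraction 11.5.1.1, and the deposited files hold linear mean and background intensities of each spot, and a log10 ratio of Cy5 over Cy3 made by that software; the deposited series table holds the same log10 ratio. Probe coordinates are those of GRCh37. Here intensities were corrected with normexp (offset 50) and loess in limma 3.58.1 (R 4.3.3), and tested on simulated data. Control and outlier spots were left out, spots of a probe were averaged, and the probe with the highest mean intensity represented its gene. Mock levels were normalized between arrays by Aquantile. By accession, all 45 representing probes matched RefSeq, where NDUFA4 is called COXFA4. Counts used a log2 ratio past 0.5 with the probe well above background in both channels. With 1 array a group no p-value was computed, and precision is limited by the number of arrays. Named genes were the assembly factors, the core subunits, NDUFA4, NDUFAB1, the 2 lowest and 2 highest members of each array and the 3 with the largest range; other genes are named as examples of their lists. The seed and promoter words and the ND alternatives were chosen after values were seen. The members and lists were chosen with earlier results of these data known. Alternatives were an offset of 0, median centring, the scanner's ratio, the series table, no filter on dim probes, the mean over probes, ratios minus other arrays, a limit of 1.0, and the 75th percentile for mock levels. A member and a marker gene are counted in these steps but not reported here by name.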

Additional observations from a re-analysis of the deposited data

How the results depend on the processing

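No paired analysis was possible because there was a single array for every treatment and no test. A list median of ratios was taken as unchanged within a set SD (0.03 for subunits, 0.10 for assembly factors). This was the SD, over the 3 PC3 mocks, of the median Cy3 level of the same list. It is a spread of levels in mock cells and not of ratios, and that of the assembly factors equals the SD of NDUFAF6 alone. Median centring changed most: the subunit medians became 0.78, 0.82, 0.59, 0.72, −0.079, 0.43, 0.90 and 0.90 (order as on the heat map, bisamide 24 h first and miR-140-3p last), the assembly factor medians 0.73, 0.66, 0.45, 0.46, 0.29, 0.72 and 0.55 on all arrays but miR-532-5p, and the members above 0.5 45, 45, 25, 36, 14, 42 and 44 on the same arrays, with 1 below −0.5 in C4-2, 0 with miR-125b-1-3p, and 0 in T24 given miR-140-5p. NDUFB10 with miR-199-3p (0.024), NDUFB11 with miR-125b-1-3p (0.26) and NDUFA12 with miR-140-5p (0.075) changed sign. Loess takes out the trend of the dye ratio with intensity and median centring does not. With miR-199-3p, 6 members were below −0.5 in place of 4 with an offset of 0, the scanner's ratio and the series table. The scanner's ratio and the series table gave assembly factor medians of −0.24 in C4-2 and −0.26 with miR-532-5p, 0 members below −0.5 with miR-125b-1-3p, 2 below and 1 above with miR-532-5p, and 2 above with miR-140-5p. An offset of 0 gave −0.27 for the assembly factors and 1 member below with miR-532-5p, and 2 above with miR-140-5p. Minus other arrays, the subunit medians were −0.037 (bisamide 24 h), −0.0041 (miR-199-3p) and 0.077 (miR-140-3p), the assembly factor median was 0.10 at 24 h of bisamide, and 1 member was below −0.5 with miR-532-3p. The mean over probes gave 0.055 for the assembly factors at 24 h and 0.047 for the subunits with miR-532-5p. A limit of 1.0 left 1 member below in C4-2, 0 with miR-125b-1-3p, and 0 below and 0 above with miR-140-5p. The 75th percentile gave 35 members over 1.0 apart between lines. The cause of the other differences was not tested. Of the other values, 189 list medians and counts stayed within the SD above or, for counts, within 1.5 times the count reported (the 6 with miR-199-3p included), 1139 values of single genes moved by less than 0.10, the median SD between the PC3 mocks, and 394 by more.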
